A study of Mus musculus with 24 samples.

Results

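RNA made within the last hour was compared with all RNA present in unstimulated mouse Th1 effector cells, gene by gene. Th1 effector cells are CD4+ T cells of the type that secretes interferon gamma. They came from mice of the DO11.10 strain, which carries a transgenic T cell receptor, and the labels name no further genotype, age or sex. Peripheral CD4+ cells were isolated on magnetic beads, and all groups share this source. The 2 groups were new RNA at 0 h (NT in the labels; cells given 200 µM of the uridine analogue 4-thiouridine, 4sU, for 1 h) and total RNA at 0 h, with 2 libraries each. They were chosen by the time point in the labels as the libraries taken with no anti-CD3 or anti-CD28 stimulus, and make up 4 of the 24 libraries of the series. The series also followed new RNA, total RNA and ribosome-protected fragments for up to 4 h after stimulation, to ask how transcription and translation unfold in a T cell response. Both kinds of resting library were depleted of ribosomal RNA and made with a stranded kit that does not select poly(A) tails. The labels do not say whether replicates 1 and 2 came from separate mice or cultures, so a p-value here reflects only the spread between libraries of 1 group, pooled over all new and total RNA groups of the fit, and that spread may be technical.

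4sU enters RNA as it is transcribed, and RNA that holds it can be pulled out of the total pool through its thiol group. A messenger that is degraded soon after it is made has to be replaced often, so its share of the new pool is high for its share of the total pool. A long-lived messenger accumulates, and little of its pool is new at any time. Short-lived messengers are known among transcription factors, cytokines and feedback inhibitors of signalling, many of which carry AU-rich elements in the 3′ untranslated region (UTR), and long-lived ones among genes for ribosomes, mitochondria and metabolism.

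The value given for each gene is its difference, log2(FPKM + 1) in new RNA minus log2(FPKM + 1) in total RNA of the same replicate number. The deposited FPKM are sequenced fragments corrected for the length of the gene and for the size of the library. The pseudocount of 1 pulls the differences of genes with low FPKM towards 0. FPKM is a share of each library, so the difference has no absolute zero. It was centred on its median over the 8724 genes with at least 1 FPKM in all 4 libraries, which was 0.46 in replicate 1 and 0.58 in replicate 2. A difference below 0 therefore means a gene lower in new RNA than the median gene, and not a net loss. Genes with a mean of at least 1 FPKM over the 4 libraries were tested, 9199 of the 9420 in the table.

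Th1 and CD4 T cell markers were present in all 4 libraries, and markers of some other cells differed between the replicate numbers. The 10 Th1 markers summed to 910 and 668 FPKM in new RNA and to 583 and 479 FPKM in total RNA of replicates 1 and 2. The 6 CD8 T cell markers summed to 174 and 62.1 FPKM in new RNA and to 340 and 54.5 FPKM in total RNA, and 5 of the 6 were higher in replicate 1 in both kinds of library. Of the sum in total RNA, Gzma alone made up 214.6 and 4.42 FPKM. The 4 dendritic cell markers in the table summed to 32.5 and 12.03 FPKM in new RNA and to 75.6 and 24.3 FPKM in total RNA. The 5 regulatory T cell markers summed to 755 and 859 FPKM in new RNA and to 338 and 375 FPKM in total RNA. The 5 B cell markers in the table reached at most 19.2 FPKM in sum, and 2 macrophage markers at most 6.76 FPKM. Of the NK cell markers, 1 of 7 was in the table, at up to 1.59 FPKM. The 6 Th2 markers summed to 41.9 and 62.7 FPKM in new RNA and to 19.6 and 27.2 FPKM in total RNA, and the 3 Th17 markers in the table to 6.76 and 0.56 FPKM and to 3.56 and 0.26 FPKM. Il4, Il5 and Il17a were listed at 0 in at least 1 total RNA library. In such bulk samples fewer cells of a type and less RNA per cell cannot be told apart. The difference of a gene is taken between new and total RNA of the same number. The main test does not include the number, so a gap between the numbers widens its spread. Gzma was not called in the main test (limma, adjusted p = 0.619) but was called with the number as a block (adjusted p = 3.1e-05). The part of these markers' cells in the results was not tested. Of the 9420 genes, 1 and 8 were listed at 0 in new RNA and 6 and 40 in total RNA. The depth of total RNA replicate 2 could be inferred from the steps between its low values, at about 4.87e+06 reads, and that of the other 3 libraries is unknown.

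At rest 1212 of 9199 genes (13.2%) were higher in new than in total RNA and 1605 (17.4%) were lower (limma, Benjamini-Hochberg adjusted p below 0.05). With the replicate number as a block the counts were 2350 (25.5%) and 2638 (28.7%), and all 2817 genes called without the block were called with it. Each resting group holds both numbers, so the block leaves the difference of a gene and its direction unchanged by design. The low side reached further. Of the genes called, 940 were lower by at least 1 on the log2 scale and 398 were higher by as much, while 175 were lower by at least 2 and only Socs1 was higher by 2. The central 50% of genes lay between -0.53 and 0.45, and the 1st and 99th percentiles were -2.43 and 1.33. Without centring, 3748 genes were called higher and 772 lower, since the median of all genes then stood at 0.53. Leaving out 1 library at a time left 455 higher and 905 lower without new RNA replicate 1, 267 and 589 without new RNA replicate 2, 812 and 994 without total RNA replicate 1, and 397 and 927 without total RNA replicate 2. All 2817 called genes kept their direction in each of these 4 fits. The fits reuse libraries on which the genes were called, so this was largely set in advance. A fit without 1 library leaves the replicate numbers unequal between new and total RNA. Its differences, here and in the lists below, therefore also hold the gap between the numbers. After centring, both new RNA libraries lay above both total RNA libraries in 3012 genes (32.7%) and below them in 3126 (34.0%). Libraries that do not overlap, as given for single genes below, are therefore common among all genes tested. Counts of list members called stand against 13.2% higher and 17.4% lower of all genes, and with the block against 25.5% and 28.7%. List counts without 1 library stand against the smaller counts of all genes in the same fit.

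The 2 replicates, which share no library, ranked the genes alike. Across the 9199 genes the difference of replicate 1 correlated with that of replicate 2 with Pearson r of 0.920 and Spearman rho of 0.908, as a description over genes, which are not independent. The median gap between replicates was 0.20, and 68 genes differed by more than 1. The sign was the same for 87.0% of genes. In the plot of 1 replicate against the other, ribosomal protein genes lie at the low end of both axes and immediate early genes at the high end.

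**Figure D1:**
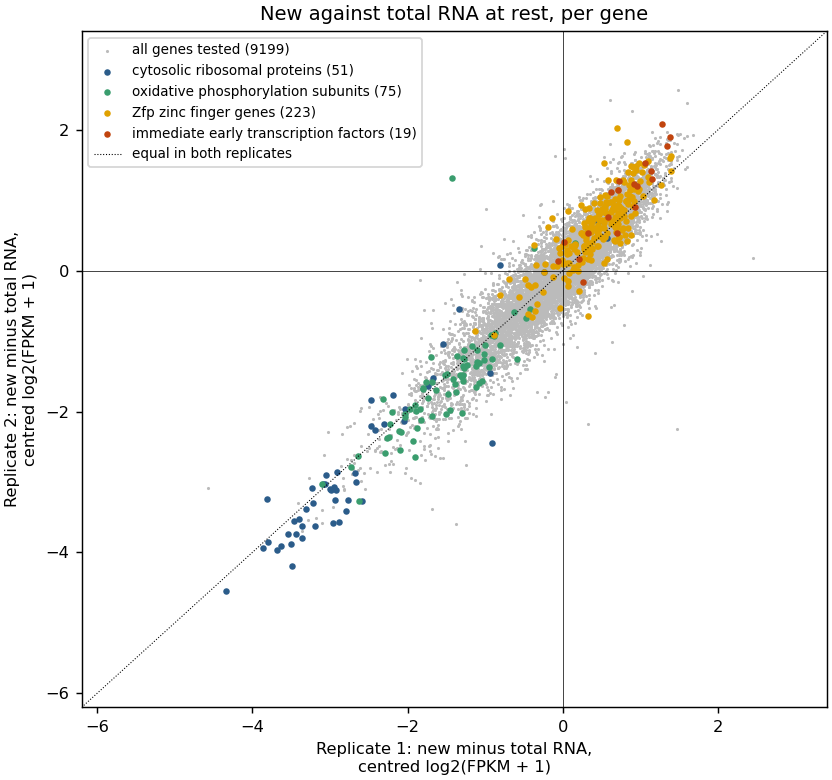
Centred difference between new and total RNA at rest, on the log2(FPKM + 1) scale, in replicate 1 (horizontal axis) and replicate 2 (vertical axis). Each point is 1 of the 9199 genes tested, with members of 4 gene lists in colour. The dotted line marks equal values, and the genes follow it with r of 0.920.

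Genes of the translation machinery had the lowest differences. Of 51 genes for cytosolic ribosomal proteins, 44 were lower in new RNA and none was higher (47 and 2 with the block), with a median difference of -3.04 against 0.00 over all genes tested. Of 16 other messengers of the terminal oligopyrimidine (TOP) class, which encode translation factors and share a pyrimidine tract at their 5′ end, all 16 were lower, with a median of -2.54. Together with 2 oxidative phosphorylation genes, 33 ribosomal protein and 5 other TOP genes filled 40 of the 50 lowest ranks. Ribosomal protein genes have many near-identical processed copies in the genome. How reads that fit several copies were counted is not given in the sources used here, so single values of these genes are uncertain.

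Rplp1 (ENSMUSG00000007892, chr9:61913284-61914542, GRCm38), a protein of the stalk of the large ribosomal subunit, was the lowest of all genes. It stood at 71.5 and 77.1 FPKM in new RNA of replicates 1 and 2 and at 1066 and 1221 FPKM in total RNA. Both new RNA libraries were far below both total RNA libraries, and the difference was -4.45 ± 0.43 SE (limma, adjusted p = 0.00161). Its stalk partners Rplp2 and Rplp0 were at -3.90 ± 0.53 and -3.77 ± 0.47. Others among the 12 lowest called were Rpsa (-3.85), Rps15 (-3.83), Rps24 (-3.82), Rpl4 (-3.69), Rpl22 (-3.64), Rps26 (-3.58), the elongation factor subunit Eef1b2 (-3.53) and Rps21 (-3.52). Adjusted p for these 12 ran from 0.00149 to 0.00404, and all 12 stayed called whichever 1 library was left out (highest adjusted p 0.0376). Npm1, a nucleolar chaperone of ribosome assembly counted among the TOP messengers, stood at 27.9 and 35.4 FPKM in new RNA and at 188 and 276 FPKM in total RNA. Its difference was -3.35 ± 0.25 SE (adjusted p = 0.00104).

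Not every ribosomal protein gene was low. Chosen after their values were seen, Rps18 stood at 17.2 and 21.3 FPKM in new RNA against 14.6 and 14.1 FPKM in total RNA, and Rpl30 at 18.4 and 16.6 against 9.26 and 6.29 FPKM. Their centred differences of -0.13 and 0.57 were not called (adjusted p = 0.654 and 0.117). With the block Rpl30 was called higher (adjusted p = 0.0119), as was the ribosomal protein-like gene Rpl7l1, also chosen after its values were seen (difference 0.52, adjusted p = 0.0195). As a share of all summed FPKM, the 51 genes took 1.30% and 1.14% of the new RNA libraries and 8.95% and 9.28% of the total RNA libraries.

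Start sites were searched for the core of the TOP tract, because the lowest genes belong to this class. In windows from 10 bases before to 20 bases from the RefSeq start (GRCm38.p6, sense strand only), the letters CTTTC occurred in 8 of 37 ribosomal protein genes (21.6%) and 3 of 10 other TOP genes that matched by symbol. They occurred in 228 of 7389 genes tested with a window (3.09%). Of the 12 lowest called genes 10 had a window, and the 2 that held the letters are shown, with CTTTC in capitals.
Rplp2, chr7:141447641-141447670, plus strand: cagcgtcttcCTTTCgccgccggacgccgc
Rps26, chr10:128626487-128626516, minus strand: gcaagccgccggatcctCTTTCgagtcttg
A match at any position of the window was counted. In Rplp2 the letters begin at the annotated start, and in Rps26 they lie downstream of it. Other pyrimidine runs at a start were not counted.

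Oxidative phosphorylation genes were lower in new RNA nearly throughout, and glycolysis genes in part. Of 75 nuclear genes for oxidative phosphorylation subunits, 69 were lower and none higher (72 lower with the block), with a median of -1.48. Leaving out new RNA replicate 2 left 46 of them called lower, and leaving out any other single library left 54 to 56. Ndufa1, a complex I subunit on the X chromosome (chrX:37187588-37191163), stood at 13.9 and 12.1 FPKM in new RNA and at 91.9 and 70.2 FPKM in total RNA, with no overlap (-3.07 ± 0.33 SE, adjusted p = 0.0017). Cox7b, of cytochrome c oxidase, was at -2.95 ± 0.32 SE (adjusted p = 0.0017). The mitochondrially encoded genes are not among the 9420 genes. Of 15 glycolysis genes, 7 were lower and none higher (median -1.24, 10 lower and 2 higher with the block). Without new RNA replicate 1 or total RNA replicate 2 the count of lower genes was 2. The median was -0.58 without new RNA replicate 1 and -0.45 without total RNA replicate 2. Within replicates 1 and 2, each with both kinds of RNA, it was -1.11 and -1.29. Pkm, pyruvate kinase, stood at 219 and 365 FPKM in new RNA and at 1097 and 1563 FPKM in total RNA (-2.73 ± 0.41 SE, adjusted p = 0.00334). The aldolase Aldoc, at 2.7 and 4.49 against 18.3 and 17.3 FPKM, was lower to a like degree (-2.58 ± 0.22 SE). The glucose transporter Slc2a1, at the other end of the glycolysis list and chosen after its values were seen, had 40.3 and 104 FPKM in new RNA and 14.5 and 32.1 FPKM in total RNA. It was not called (differences of 0.95 and 1.08 in replicates 1 and 2, adjusted p = 0.299) but passed with the block (adjusted p = 0.000632), and replicate 2 was the higher in both kinds of RNA.

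Protein quality control, the cytoskeleton and redox enzymes lay on the same side. Counts without 1 library are given in the order new RNA replicates 1 and 2, then total RNA replicates 1 and 2. Of 34 proteasome genes, 26 were lower (median -1.20; 31 with the block), against 13, 6, 13 and 8 without 1 library. The catalytic-ring subunits Psmb2 (-1.81 ± 0.27 SE) and Psmb1 (-1.80 ± 0.30 SE) were the lowest 2 of those called. Of 18 chaperonin and heat shock genes, 13 were lower and 1 higher (median -1.33; 15 and 1 with the block; 9, 6, 9 and 7 lower without 1 library). The cytosolic chaperone Hsp90ab1 stood at 81.8 and 119 FPKM in new RNA and 321 and 473 FPKM in total RNA (-2.49 ± 0.31 SE, adjusted p = 0.00204). The 1 member that was higher was Dnajb1, named after its values were seen, a stress-inducible co-chaperone, with 89.1 and 80.6 against 25.3 and 19.9 FPKM (1.35 ± 0.28 SE, adjusted p = 0.00959). Dnajb1 was at 0.0586 without new RNA replicate 1 and at 0.0617 without total RNA replicate 2. Of 24 cytoskeleton genes, 15 were lower (median -1.24; 20 lower and 2 higher with the block; 9, 4, 7 and 11 without 1 library), among them the actin-binding Cfl1 (-2.06 ± 0.43 SE, adjusted p = 0.00959) and Tmsb10 (adjusted p = 0.00322). Cfl1 lost its call without new RNA replicate 2 (adjusted p = 0.0816) and without total RNA replicate 1 (0.0527). Of 20 antioxidant genes, 14 were lower (median -1.10; 17 lower and 1 higher with the block; 12, 8, 13 and 12 without 1 library), led by thioredoxin Txn1 (-2.73 ± 0.36 SE) and the superoxide dismutase Sod1 (-2.51 ± 0.32 SE).

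Genes that make and process RNA and ribosomes were nearer to the median gene. Of 28 core spliceosome genes, 19 were lower (median -0.92; 21 lower and 1 higher with the block; 8, 6, 9 and 11 without 1 library). Snrpd2 and Snrpf, proteins of the Sm ring that binds small nuclear RNA, were at -2.97 ± 0.50 and -2.34 ± 0.21 SE. Of 47 ribosome biogenesis genes, 12 were lower (25 lower and 3 higher with the block; 6, 3, 5 and 3 lower without 1 library). Against 17.4% of all genes, 25.5% of these were lower. Their median of -0.44 turned to 0.08 without centring. The rRNA methyltransferase Fbl was the lowest of them (8.58 and 9.57 against 35.1 and 27.8 FPKM, -2.21 ± 0.35 SE, adjusted p = 0.0036). Of 74 mitochondrial ribosomal proteins, 13 were lower and 3 higher (28 and 7 with the block; 7, 4, 8 and 7 lower and 0, 0, 0 and 1 higher without 1 library). The share called lower, 17.6%, was near that of all genes. Their median was -0.23, and 0.29 without centring, above that of the cytosolic ribosomal proteins in either case, and it was -0.38 without new RNA replicate 1, -0.10 without new RNA replicate 2, -0.11 without total RNA replicate 1 and -0.36 without total RNA replicate 2. The 2 lists did not overlap in their central 50%, which ran from -3.48 to -2.12 for cytosolic and from -0.66 to 0.01 for mitochondrial ribosomal proteins, and the difference between the lists was not tested. Of 37 aminoacyl-tRNA synthetases, 17 were lower and 1 higher (median -0.56; 22 and 2 with the block; 6, 4, 10 and 5 lower without 1 library). Lars2, the mitochondrial leucine enzyme, chosen after its values were seen, had the most negative value of that list at -3.83 ± 1.77 SE. It stood at 9.89 and 9.87 FPKM in new RNA and at 187 and 60.9 FPKM in total RNA, and with its wide spread was not called (adjusted p = 0.134, 0.0339 with the block).

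Genes of antigen presentation and of granules had mostly negative differences, and the T cell receptor pathway was divided. Of 14 genes of MHC class I and antigen processing, 4 were lower and none higher (median -1.19; 9 lower with the block; 2, 0, 0 and 2 without 1 library). Lower members made up 28.6%, against 17.4% of all genes. With the block 28.7% of all genes were lower. B2m, the light chain of MHC class I, stood at 660.1 and 472 FPKM in new RNA and at 2471 and 1347 FPKM in total RNA (-2.23 ± 0.55 SE, adjusted p = 0.019). The call was lost without new RNA replicate 1 (0.0537), new RNA replicate 2 (0.121) or total RNA replicate 1 (0.108), and with the block its adjusted p was 6.30e-05. Of 23 granule and lysosome genes, 10 were lower (median -1.25; 19 lower and 1 higher with the block; 7, 4, 4 and 8 without 1 library), among them the lysosomal protease Ctss (-2.05 ± 0.31 SE, adjusted p = 0.00325). Lower members made up 43.5%, against 17.4% of all genes. Some granule genes are also expressed by CD8 T cells and dendritic cells, whose markers, given above, summed higher in replicate 1. Their part in these counts was not tested. The median of the list was -0.75 without new RNA replicate 2 and -0.78 without total RNA replicate 1, and -1.27 and -1.20 within replicates 1 and 2. Of 32 genes of T cell receptor signalling, 6 were lower and 2 higher (median -0.05; 10 lower and 7 higher with the block; 2, 1, 3 and 3 lower and 0, 0, 1 and 0 higher without 1 library). The share called lower was 18.8%, near that of all genes. The median was -0.16 without new RNA replicate 1, 0.22 without new RNA replicate 2, 0.13 without total RNA replicate 1 and -0.16 without total RNA replicate 2. Within replicates 1 and 2 it was -0.04 and -0.07. It was positive under 4 settings in all, from 0.05 with a pseudocount of 5 to 0.47 without centring. The receptor chains were on its low side. Cd3e stood at 38.6 and 45.3 FPKM in new RNA and at 57.8 and 95.4 FPKM in total RNA (-1.34 ± 0.25 SE, adjusted p = 0.00634, at most 0.0427 without 1 library). Cd3g (-1.45 ± 0.29 SE, adjusted p = 0.00864) and the surface glycoprotein Thy1 (-1.45 ± 0.37 SE, adjusted p = 0.0212) were lower too. Cd3g was at 0.0652 without new RNA replicate 2, and Thy1 was above 0.05 whichever 1 library was left out, at 0.0504 to 0.134.

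**Figure D2:**
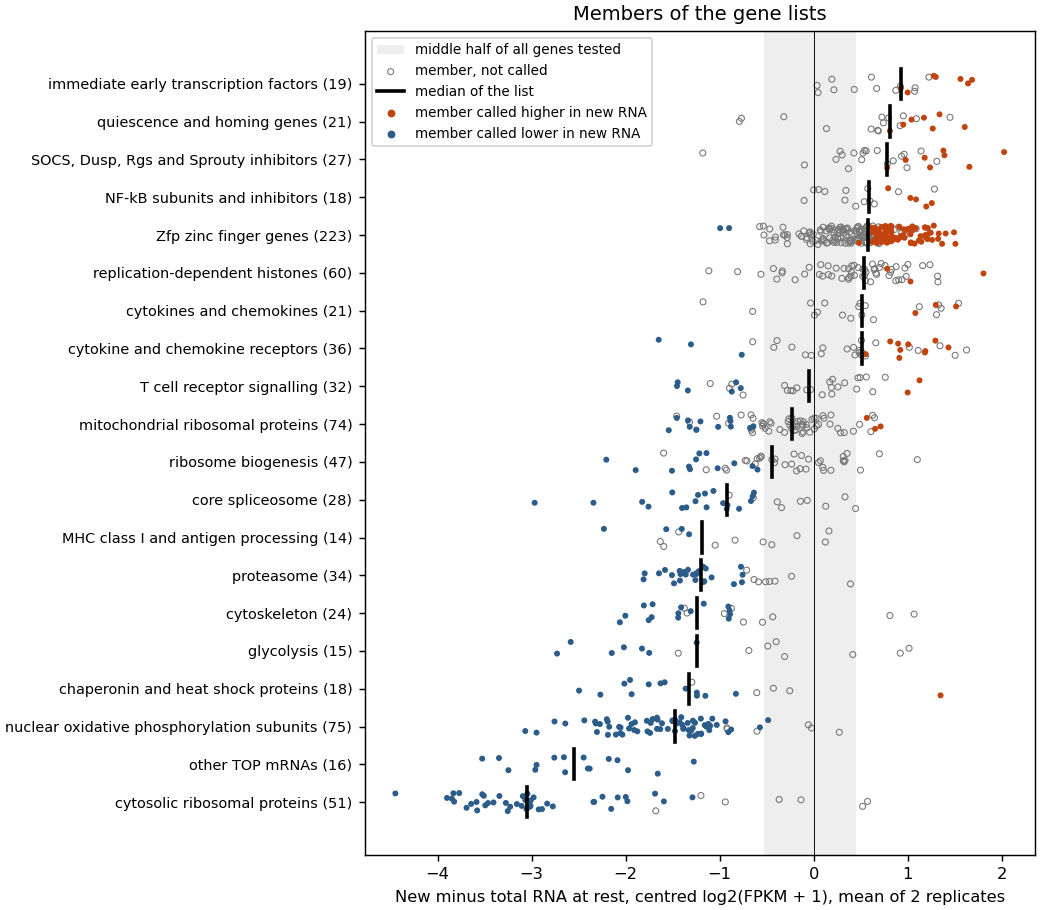
Centred difference between new and total RNA at rest for the members of 20 gene lists, mean of 2 replicates. Each point is 1 gene, filled where called (red higher, blue lower in new RNA) and open where not, the black bar is the median of the list, and the grey band holds the central 50% of all genes tested. The lists run from a median of -3.04 for cytosolic ribosomal proteins to 0.93 for immediate early transcription factors.

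At the other end stood regulators of signalling and transcription. Socs1 (ENSMUSG00000038037, chr16:10782240-10785536), which inhibits the kinases of cytokine receptors, had the highest difference of all genes tested. It stood at 23.8 and 34.5 FPKM in new RNA of replicates 1 and 2 and at 5.41 and 3.02 FPKM in total RNA. The libraries did not overlap, and the difference was 2.02 ± 0.29 SE (adjusted p = 0.00296, at most 0.0313 without 1 library). Nfil3 (chr13:52967209-52981073), a basic leucine zipper factor of the clock and of lymphoid development, stood at 70.1 and 64.3 against 15.9 and 10.6 FPKM (1.76 ± 0.29 SE, adjusted p = 0.0042). Tbx21 (chr11:97098071-97115331) encodes T-bet, the transcription factor that defines Th1 cells. It stood at 140.0 and 146 FPKM in new RNA and at 34.9 and 24.4 FPKM in total RNA. All 4 libraries fell on their own side, at 1.73 ± 0.37 SE (adjusted p = 0.0116). Its call was lost without new RNA replicate 1 (0.0553), new RNA replicate 2 (0.0617) or total RNA replicate 2 (0.0722).

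The other 9 of the 12 highest called genes were mixed in kind. They were the histone H3 gene Hist1h3g (1.80 ± 0.48 SE), the chromosome alignment factor Bod1 (1.73 ± 0.16), the vesicle GTPase Rab3a (1.71 ± 0.25), the cell cycle coregulator Sertad1 (1.71 ± 0.18), the small Maf factor Mafk (1.68 ± 0.34), the ERK phosphatase Dusp5 (1.66 ± 0.38), the immediate early gene Ier5 (1.64 ± 0.32), the oxygenase Riox1 (1.63 ± 0.35) and the zinc finger gene Zkscan14 (1.62 ± 0.21). Their adjusted p ran from 0.00149 for Bod1 to 0.0242 for Hist1h3g. Bod1, Rab3a, Sertad1, Mafk and Zkscan14 stayed called whichever 1 library was left out. Hist1h3g lost its call whichever 1 library was left out (0.0693 to 0.112), Dusp5 without new RNA replicate 2 (0.0956) or total RNA replicate 1 (0.0842), Ier5 without new RNA replicate 2 (0.0632), and Riox1 without new RNA replicate 1 (0.0622) or total RNA replicate 2 (0.0659). Reads of histone genes can fit several near-identical copies, so the value of Hist1h3g is uncertain. Of the 12 highest called genes 6 have 0 or 1 intron, and the 12 lowest called have 2 to 9.

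**Figure D3:**
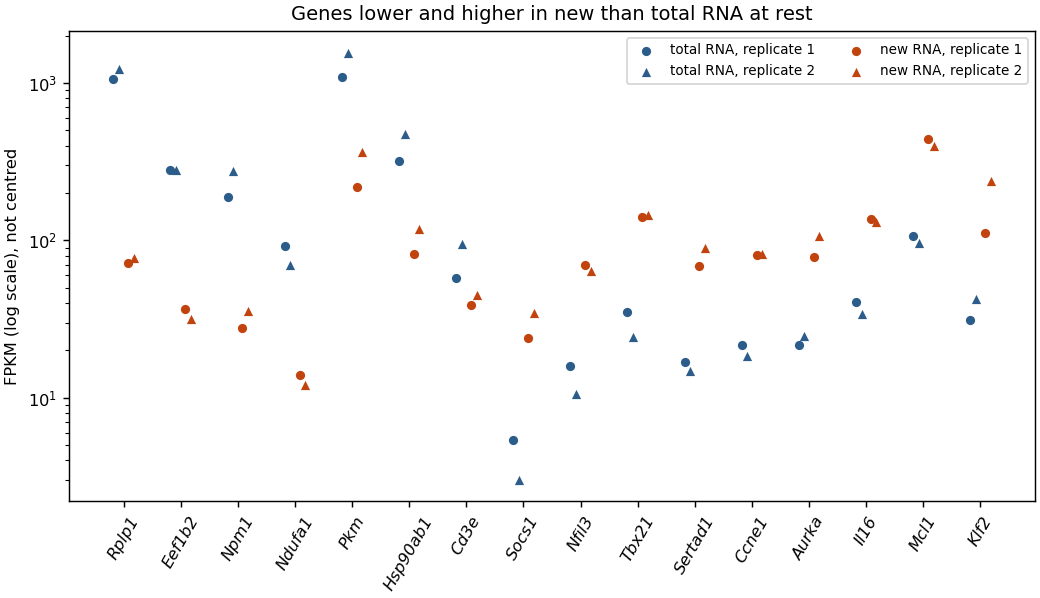
FPKM at rest (log scale, not centred) of 16 genes in the 4 libraries: total RNA in blue, new RNA in red, circles for replicate 1 and triangles for replicate 2. The first 7 genes were lower and the last 9 higher in new RNA, and in each gene both libraries of 1 kind lie above both of the other. After centring, 32.7% of all genes tested had both new RNA libraries above both total RNA libraries, and 34.0% had them below.

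Feedback inhibitors and early response genes had mostly positive differences. Of 27 SOCS, Dusp, Rgs and Sprouty genes, which shut off cytokine, kinase and G protein signals, 8 were higher and none lower (median 0.78; 18 higher and 1 lower with the block; 5, 3, 5 and 5 higher without 1 library). Higher members made up 29.6%, against 13.2% of all genes. Dusp5 stood at 123 and 297 FPKM in new RNA and at 34.5 and 49.9 FPKM in total RNA. Of 19 immediate early transcription factors tested (24 in the table), 7 were higher and none lower (median 0.93; 14 with the block; 4, 1, 4 and 2 without 1 library), and all 19 had a difference above 0. Higher members made up 36.8%, against 13.2% of all genes. Without a stimulus the list median was 21.95 FPKM in new and 7.105 FPKM in total RNA, against 12.81 and 8.38 FPKM over all genes tested. Junb, a subunit of AP-1, stood at 69.4 and 95 against 30.2 and 28 FPKM (0.93 ± 0.24 SE, adjusted p = 0.023, between 0.0603 and 0.157 whichever 1 library was left out). Fos stood at 2.93 and 6.86 against 1.81 and 2.95 FPKM and was not called (0.21 ± 0.53 SE, adjusted p = 0.789). Of 18 NF-kB subunits and inhibitors, 5 were higher and none lower (median 0.59; 10 with the block; 1, 0, 2 and 1 without 1 library), and the median was 0.89 without total RNA replicate 1. Higher members made up 27.8%, against 13.2% of all genes. The inhibitor Nfkbia, itself a target of NF-kB, stood at 170.0 and 144 FPKM in new RNA and at 59.1 and 36.9 FPKM in total RNA (1.20 ± 0.39 SE, adjusted p = 0.0478). It was not called whichever 1 library was left out (0.0618 to 0.241). The ubiquitin editor Tnfaip3 was at 1.26 ± 0.29 SE (adjusted p = 0.0146), and at 0.101 without new RNA replicate 2 and 0.0796 without total RNA replicate 1.

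Genes for proteins that destroy messengers fell on both sides. Of 14 AU-rich element binding, Regnase and Roquin genes, 4 were higher and 4 lower (median 0.34; 7 and 4 with the block; 0, 2, 2 and 0 higher and 1, 2, 2 and 2 lower without 1 library). Each share was 28.6%, against 13.2% higher and 17.4% lower of all genes. The median was 0.12 without new RNA replicate 2 and 0.23 without total RNA replicate 1. The Regnase nucleases Zc3h12a (21.6 and 18 against 5.98 and 2.55 FPKM, 1.53 ± 0.33 SE, adjusted p = 0.0109) and Zc3h12d (1.32 ± 0.32 SE, adjusted p = 0.0176) were higher. Both lost the call without new RNA replicate 1 (0.0626 and 0.104) and without total RNA replicate 2 (0.0530 and 0.0983). Zfp36, which binds AU-rich elements and recruits deadenylases, stood at 31 and 39.7 FPKM in new RNA and at 12.2 and 15.7 FPKM in total RNA. It was not called (0.76 ± 0.28 SE, adjusted p = 0.0715, 0.0159 with the block). Of 43 deadenylation, decapping and decay genes, 3 were higher and 5 lower (11 and 10 with the block; median 0.15; 2, 0, 2 and 1 higher and 3, 3, 4 and 3 lower without 1 library), and both shares, 6.98% and 11.6%, lay below those of all genes. The median was 0.10 without total RNA replicate 1. Tob2, an adaptor of the deadenylase, was at 1.20 ± 0.26 SE (adjusted p = 0.0116), and Lsm4, of the ring that binds oligoadenylated RNA in decay and U6 RNA in splicing, was at -2.06 ± 0.32 SE (adjusted p = 0.00357). Tob2 was at 0.0760 without new RNA replicate 2 and at 0.0631 without total RNA replicate 2.

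Cytokine genes had mostly positive differences, in 18 of 21, with wide spread. Of 21 cytokines and chemokines tested (28 in the table), 3 were higher and none lower (median 0.51; 9 higher and 2 lower with the block; 2, 1, 1 and 1 higher without 1 library). The share called higher, 14.3%, was near the 13.2% of all genes, and the median was 0.88 without new RNA replicate 2, 0.88 without total RNA replicate 1 and 0.31 without total RNA replicate 2. Il16, a chemoattractant of CD4+ cells, stood at 136 and 131 FPKM in new RNA and at 40.5 and 33.9 FPKM in total RNA (1.30 ± 0.19 SE, adjusted p = 0.00299, at most 0.0283 without 1 library). Csf2, the growth factor GM-CSF, stood at 2.09 and 7.02 FPKM in new RNA and at 0.47 FPKM in total RNA replicate 1, and was listed at 0 in total RNA replicate 2. On the log2(FPKM + 1) scale it was called higher (1.51 ± 0.43 SE, adjusted p = 0.0302), but not without new RNA replicate 2 (0.173), total RNA replicate 1 (0.0557) or total RNA replicate 2 (0.151). Ifng stood at 101 and 45.4 FPKM in new RNA and at 42.3 and 25 FPKM in total RNA. Replicate 1 was the higher in both kinds, the libraries overlapped once new RNA was centred, and no call was made (0.51 ± 1.11 SE, adjusted p = 0.759, 0.345 with the block). Tnf stood at 89.6 and 43.6 against 20.6 and 9.72 FPKM. Its within-replicate differences of 1.60 and 1.48 lay close together, and it passed with the block (adjusted p = 0.000456) and not without (1.54 ± 0.84 SE, adjusted p = 0.198). Il2 was at or under 0.24 FPKM in all 4 libraries and was not tested.

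Receptors for cytokines and chemokines were higher more often than lower, 10 against 3 of 36 (median 0.51; 20 and 3 with the block; 2, 2, 5 and 2 higher and 1 lower each time without 1 library). The shares were 27.8% higher and 8.33% lower, against 13.2% and 17.4% of all genes. S1pr4, a receptor for the lipid sphingosine 1-phosphate that has no intron in its representative transcript, stood at 304 and 408 FPKM in new RNA and at 84.4 and 95.8 FPKM in total RNA (1.43 ± 0.26 SE, adjusted p = 0.00614, 0.0537 without new RNA replicate 2). Tnfrsf9, the costimulatory receptor 4-1BB, was on the low side with 8.93 and 13.7 against 19.5 and 32.7 FPKM (-1.65 ± 0.33 SE, adjusted p = 0.00872). Without new RNA replicate 1 or total RNA replicate 2 it was at 0.0580 and 0.0571. Ccr7, which guides T cells to lymph nodes and was chosen after its values were seen, differed between replicates, with 136 and 519.7 FPKM in new RNA and 35.6 and 97.8 FPKM in total RNA. It was called only with the block (difference 1.62 ± 1.15 SE, adjusted p = 0.314 without and 0.000387 with it). Il7r, the interleukin 7 receptor, showed the same with 277 and 162 against 150.2 and 70.6 FPKM (0.51 ± 0.50 SE, adjusted p = 0.473 without and 0.0288 with the block).

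Genes of T cell quiescence and homing had mostly positive differences. Of 21 such genes, 7 were higher and none lower (median 0.81; 17 higher and 2 lower with the block; 2, 0, 4 and 1 higher without 1 library). Higher members made up 33.3%, against 13.2% of all genes. Klf2, a factor of naive and quiescent T cells, stood at 112 and 238 FPKM in new RNA and at 31.2 and 42.7 FPKM in total RNA (1.61 ± 0.46 SE, adjusted p = 0.0302). Its target S1pr1, the receptor for exit from lymph nodes, stood at 185 and 258 against 64.3 and 67.9 FPKM (1.19 ± 0.36 SE, adjusted p = 0.0363). Txnip, which restrains glucose uptake, was among the most abundant with 915 and 776 against 289.9 and 184 FPKM (1.34 ± 0.38 SE, adjusted p = 0.0289). In all 3 genes both new RNA libraries exceeded both total RNA libraries, which after centring held for 32.7% of all genes tested. Klf2 kept its call only without new RNA replicate 1 (0.0344) and Txnip only without total RNA replicate 1 (0.0422). S1pr1 was above 0.05 whichever 1 library was left out (0.0760 to 0.169).

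Among survival, stress and growth regulators the short lists held few calls. Of 13 Bcl2 family genes, 3 were higher (23.1% against 13.2% of all genes; 6 with the block; 0, 1, 1 and 0 without 1 library). Mcl1, the survival protein with a rapid turnover, stood at 441 and 397 FPKM in new RNA and at 107 and 96.6 FPKM in total RNA (1.51 ± 0.30 SE, adjusted p = 0.00843; 0.0561 without new RNA replicate 1 and 0.0542 without total RNA replicate 2). Its relative Bcl2 stood at 28.4 and 29.9 against 18 and 16.6 FPKM and was not called (0.20 ± 0.32 SE, adjusted p = 0.68). Of 18 p53 and stress targets, 3 were higher (16.7% against 13.2% of all genes; median 0.61; 9 higher and 1 lower with the block; 3, 1, 2 and 1 higher without 1 library), among them Phlda3, an inhibitor of AKT (36.3 and 43.9 against 10.9 and 12.4 FPKM, 1.17 ± 0.17 SE, adjusted p = 0.00321). Of 9 partners in the MYC network, 2 were higher (22.2% against 13.2% of all genes; median 0.63; 5 with the block; 0, 0, 1 and 0 without 1 library), with a median of 0.40 without total RNA replicate 2. Myc itself stood at 27.9 and 27.5 FPKM in new RNA and at 11.9 and 12.2 FPKM in total RNA, close between replicates, and was called only with the block (0.61 ± 0.26 SE, adjusted p = 0.107 without and 0.0143 with it). Of 15 clock genes tested, 2 were higher (median 0.44; 7 with the block; 1, 1, 3 and 1 without 1 library), a share of 13.3% against 13.2% of all genes.

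Zinc finger genes were the most numerous of the lists on the high side. Of 223 genes with Zfp symbols tested (226 in the table), 87 were higher and 2 lower, and 196 had a difference above 0 (median 0.58). Against 13.2% and 17.4% of all genes, 39% of these were higher and 0.897% lower. The counts of higher genes were 140 with the block and 52, 19, 56 and 40 without 1 library. Their level was low, with a list median of 10.57 FPKM in new RNA and 4.085 FPKM in total RNA against 12.81 and 8.38 FPKM over all genes tested. Zfp746 stood at 21.7 and 26.1 against 5.26 and 4.87 FPKM (1.51 ± 0.18 SE, adjusted p = 0.00199) and Zfp954 at 29.6 and 34.7 against 7.52 and 6.85 FPKM (1.49 ± 0.15 SE, adjusted p = 0.00166). Both stayed called whichever 1 library was left out. Of 43 histone-modifying and chromatin-remodelling genes, 6 were higher and 4 lower (median 0.31; 15 and 5 with the block; 2, 2, 4 and 2 higher and 1, 0, 2 and 1 lower without 1 library). The share called higher was near that of all genes and the share called lower, 9.30%, was below it, and the median was 0.16 without new RNA replicate 2 and 0.12 without total RNA replicate 1. The acetyl-histone reader Brd2 (88.1 and 97.6 against 30.3 and 22.2 FPKM, 1.27 ± 0.21 SE, adjusted p = 0.00406) and the deacetylase Hdac2 (8.6 and 8.61 against 13.3 and 12.6 FPKM, -1.06 ± 0.20 SE, adjusted p = 0.00676) mark its ends. Without new RNA replicate 2 Hdac2 was at 0.0553.

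Replication-dependent histone genes, whose messengers end in a stem-loop and not in a poly(A) tail, could be measured because the libraries were not selected for poly(A). Of 60 tested, 50 had a difference above 0 and 3 were called higher (median 0.53; 10 with the block; 1 in each fit without 1 library), and the share called, 5.00%, was below that of all genes. The median was 0.35 without new RNA replicate 1. Together they took 13.8% and 11.8% of the summed FPKM of new RNA and 7.08% and 6.96% of that of total RNA. Hist2h2be, an H2B gene, stood at 7.79 and 8.36 against 2.24 and 1.95 FPKM (1.03 ± 0.16 SE, adjusted p = 0.00339). It is not typical of the list. Its representative transcript has a 3′ UTR of 2192 nt, against a list median of 89 nt. The list median in total RNA was 144 FPKM. Histone values are uncertain one by one because the copies share sequence.

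Of 40 S phase genes, 7 were higher and 12 lower (median -0.36, 0.16 without centring), and of 34 mitosis genes, 2 were higher and 6 lower (median -0.39, 0.14 without centring). With the block the counts were 9 higher and 18 lower for S phase and 5 higher and 17 lower for mitosis. For S phase genes 17.5% were called higher and 12 of 40 lower, and for mitosis genes 5.88% and 17.6%, the latter near the 17.4% of all genes. The mitosis median was -0.18 without new RNA replicate 1. Without 1 library the S phase counts were 2, 1, 5 and 2 higher and 6, 2, 7 and 7 lower, and the mitosis counts were 1 higher each time and 0, 2, 3 and 0 lower. Ccne1, the cyclin of the G1 to S transition, stood at 80.8 and 81.6 FPKM in new RNA and at 21.7 and 18.4 FPKM in total RNA (1.45 ± 0.20 SE, adjusted p = 0.00264). The DNA ligase Lig1, of the same list, stood at 20 and 19.7 against 39.3 and 37.6 FPKM (-1.44 ± 0.16 SE, adjusted p = 0.0017). Both stayed called whichever 1 library was left out. The mitotic kinase Aurka stood at 78.2 and 107 against 21.7 and 24.8 FPKM (1.41 ± 0.22 SE, adjusted p = 0.00354), while the condensin subunit Smc2 was on the low side (-1.31 ± 0.26 SE, adjusted p = 0.00818, 0.0554 without new RNA replicate 1 and 0.0522 without total RNA replicate 2).

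Stress lists held calls in both directions. Of 18 ATF4 targets and amino acid genes, 8 were lower and 1 higher (median -0.13; 8 lower and 6 higher with the block; 5, 4, 7 and 4 lower and 1, 0, 2 and 1 higher without 1 library). The shares were 44.4% lower and 5.56% higher, against 17.4% and 13.2% of all genes. The median was -0.24 without new RNA replicate 1, -0.05 without new RNA replicate 2 and -0.26 without total RNA replicate 1. The serine synthesis enzymes Phgdh (6.78 and 5.27 against 17.2 and 24.4 FPKM, -2.15 ± 0.28 SE) and Psat1 (-2.14 ± 0.26 SE) were lower, at adjusted p = 0.0022 and 0.00199. The 1 member called higher was Sesn2, an inhibitor of mTORC1 named after its values were seen (20.1 and 34.1 against 5.41 and 5.76 FPKM, 1.52 ± 0.28 SE, adjusted p = 0.00637). Without new RNA replicate 2 Sesn2 was at 0.0527. Of 25 genes of endoplasmic reticulum chaperones and the unfolded protein response, 7 were lower and 4 higher (median -0.39, 0.13 without centring; 12 and 6 with the block; 6, 4, 5 and 6 lower and 0, 1, 2 and 0 higher without 1 library). The shares were 28.0% lower and 16.0% higher, the latter near the 13.2% of all genes. With the block 28.7% of all genes were lower and 25.5% higher. The median was -0.70 without new RNA replicate 1, -0.15 without new RNA replicate 2, -0.05 without total RNA replicate 1 and -0.88 without total RNA replicate 2. Within replicates 1 and 2 it was -0.47 and -0.44. The folding factors Ppib (-2.55 ± 0.49 SE, adjusted p = 0.0073) and Canx (33.9 and 35.6 against 129.6 and 136 FPKM, -2.43 ± 0.21 SE, adjusted p = 0.00136) were low, and Herpud1, of the degradation complex and chosen after its values were seen, was high (107 and 82.9 against 28.7 and 22.1 FPKM, 1.34 ± 0.30 SE, adjusted p = 0.0128). Herpud1 was at 0.0800 without new RNA replicate 1 and at 0.0768 without total RNA replicate 2. Ppib was at 0.0573 without new RNA replicate 2. Of 37 interferon response genes tested, 3 were higher and 2 lower (median 0.06; 7 and 6 with the block; 1, 1, 2 and 1 higher and 1, 0, 0 and 0 lower without 1 library), and both shares, 8.11% and 5.41%, were below those of all genes. The median was -0.20 without new RNA replicate 1, 0.28 without new RNA replicate 2, 0.29 without total RNA replicate 1 and 0.02 without total RNA replicate 2. The transcription factor Irf1 stood at 246 and 207 FPKM in new RNA and at 70 and 44.6 FPKM in total RNA (1.47 ± 0.38 SE, adjusted p = 0.021). The antiviral effector Bst2 stood at 4.37 and 2.17 against 14.9 and 8.02 FPKM (-2.06 ± 0.61 SE, adjusted p = 0.0339). Irf1 kept its call only without total RNA replicate 1 (0.0345), and Bst2 was above 0.05 whichever 1 library was left out (0.0558 to 0.171). Of 28 cholesterol and fatty acid synthesis genes, 10 were lower and none higher (median -0.78, -0.49 without total RNA replicate 2; 15 lower and 1 higher with the block; 10, 5, 7 and 7 without 1 library). Against 17.4% of all genes, 35.7% of these were lower. Their within-replicate medians differed, at -0.21 in replicate 1 and -0.97 in replicate 2.

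Actb, often used as a reference gene, stood at 1835 and 1812 FPKM in new RNA and at 3218 and 3237 FPKM in total RNA. Its difference of -1.35 ± 0.51 SE was not called without the block (adjusted p = 0.0769) and was called with it (0.00714). The coreceptor Cd4 stood at 77.9 and 82.9 against 127 and 82.4 FPKM, overlapping before centring, and was lower after it (-0.87 ± 0.24 SE, adjusted p = 0.0283), keeping its call only without total RNA replicate 2 (0.0271). Cd69, an early activation marker, stood at 33.9 and 80.6 against 13 and 24.2 FPKM and passed only with the block (0.98 ± 0.48 SE, adjusted p = 0.157 without and 0.00858 with it).

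Sequence features of the messengers were set beside the difference, using the representative transcript of each gene in GENCODE M21 (GRCm38). The heptamer TATTTAT, a core of AU-rich elements, was searched on the sense strand of the 3′ UTR, counting overlapping matches, and occurred in 2600 of 9177 genes (28.3%). Genes with it had a median difference of 0.18 and those without it -0.08. The UTR length moves with both, since a long UTR holds more matches by its length. Genes were therefore put into 4 classes of equal size by UTR length. Within the class with the shortest UTRs (0 to 414 nt), 148 genes with the heptamer had a median of 0.06 and 2147 without it -0.31. Within the class with the longest (2066 nt and more), the medians were 0.18 for 1272 genes with and 0.12 for 1022 without. The gap was thus largest in short UTRs, as values with no test. The motif TGTANATA, bound by Pumilio proteins, occurred in 2302 genes (25.1%). In the shortest class 172 genes with it had a median of -0.09 and 2123 without it -0.30, and in the longest class the medians were 0.16 and 0.14.

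The heptamer was frequent in some lists and rare in others. It occurred in 17 of 21 cytokines and chemokines (81.0%), 9 of 14 AU-rich element binding, Regnase and Roquin genes (64.3%) and 11 of 19 immediate early factors (57.9%). It occurred in 1 of 51 cytosolic ribosomal proteins (1.96%), 5 of 75 oxidative phosphorylation genes (6.67%) and 3 of 34 proteasome genes (8.82%). The median UTR lengths of these lists were 706, 2542 and 1200 nt for the first 3 and 64, 175 and 227 nt for the last 3. The following sites show the heptamer in capitals with 10 bases on either side, each with its start in the 3′ UTR. The first 5 belong to genes with a difference above 0 and the last 3 to genes lower in new RNA.
Csf2, chr11:54247300-54247326, minus strand, UTR position 272: tttgcaactcTATTTATtgagaatgtc
Tnf, chr17:35199709-35199735, minus strand, UTR position 420: agcccccctcTATTTATatttgcactt
Nfkbia, chr12:55489609-55489635, minus strand, UTR position 297: gaccacgtttTATTTATtgtgcttttg
Mcl1, chr3:95660883-95660909, plus strand, UTR position 70: aaaacatgtgTATTTATgaaggtggac
Irf1, chr11:53777104-53777130, plus strand, UTR position 668: cctttgcattTATTTATatagtgcctt
Canx, chr11:50295068-50295094, minus strand, UTR position 1198: ctgctaaaagTATTTATgggaggattg
Psmb1, chr17:15475609-15475635, minus strand, UTR position 395: cgtgcatgcaTATTTATgtgaacaggg
Thy1, chr9:44047681-44047707, plus strand, UTR position 240: ttgtactctgTATTTATtccagggctg
Csf2 and Tnf hold 9 and 8 such sites, partly overlapping, Mcl1 and Psmb1 3 each, Nfkbia and Canx 2 each, and Irf1 and Thy1 1 each. Of the 12 highest called genes 2 hold the heptamer, Tbx21 with 1 and Rab3a with 4 sites, and of the 12 lowest none does. Socs1, the highest of all, has none in its 3′ UTR of 1993 nt. A match is a run of letters and was not tested as a binding site.

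Genes with few introns had higher differences. The median was 0.60 for 196 genes whose representative transcript has no intron, 0.62 for 370 with 1 intron, 0.19 for 1179 with 2 to 3, -0.06 for 2506 with 4 to 7 and -0.05 for 4926 with 8 or more. Of the 196 and 370 genes, 62 and 135 were called higher and 12 and 20 lower. Among all 9199 genes tested, 1212 (13.2%) were higher and 1605 (17.4%) lower. Without the listed ribosomal, TOP, oxidative phosphorylation and proteasome genes, a set chosen after seeing the data, the medians of the first 3 classes were 0.60, 0.64 and 0.25. The class with no intron held 196 genes in both cases, so its median could not change. With the gene minimum raised to a mean of 5 FPKM the medians of the first 3 classes were 0.62, 0.74 and 0.21. The 60 replication-dependent histone genes tested, with a median intron count of 0, were not left out as a group. Their single values are uncertain, their median difference was 0.53, and their part in the intron classes was not tested. Whether reads from introns or unspliced RNA entered the FPKM is not given in the sources used here, and their part in this was not tested. Long transcripts were higher than short ones, with medians of -0.37, 0.00, 0.09 and 0.16 from the shortest to the longest of 4 classes of equal size. The span of the gene on the genome showed no such order, with medians of 0.06, 0.02, -0.05 and 0.01.

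**Figure D4:**
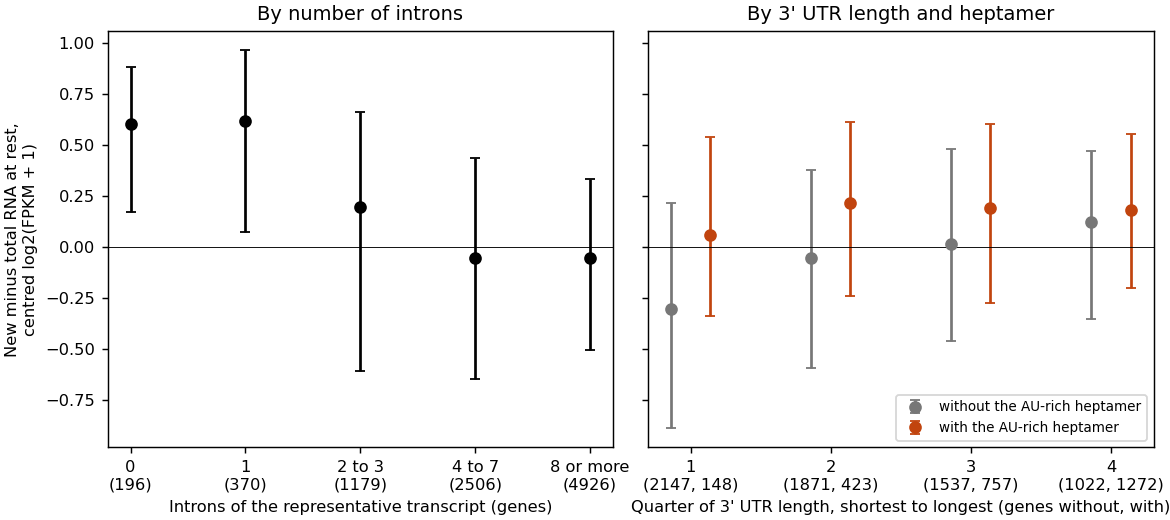
Centred difference between new and total RNA at rest by the number of introns (left) and by 4 classes of 3′ UTR length, equal in size, without and with the AU-rich heptamer (right). Points are medians over genes and bars run from the 25th to the 75th percentile, with the number of genes under each class. The median falls from 0.60 for genes with no intron to -0.05 for those with 8 or more, and the gap with the heptamer is largest in the shortest UTRs.

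4sU replaces uridine, so the T content and the length of the transcript bear on how much label a messenger can hold. Medians over 4 classes of equal size by T content were 0.00, 0.04, 0.02 and -0.04 from the lowest to the highest class. Those by transcript length, given above, ran from -0.37 to 0.16. The part of label capture in the differences was not tested. The level in total RNA moved with the difference more strongly than the T content, with medians of 0.15, 0.18, 0.00 and -0.53 from the lowest to the highest class. Total RNA enters the difference itself, so this order is partly built in. Genes in the highest class, above 19.0 FPKM, were called lower in 864 of 2300 cases and higher in 129. Among all genes tested 17.4% were lower and 13.2% higher.

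The resting order of genes was largely kept after stimulation, in pairs of libraries of the same number that share no library with those at rest. Across genes the mean resting difference correlated with that at 1 h (replicate 2) with Pearson r of 0.845, at 2 h (replicate 1) with 0.843 and at 4 h with 0.770 (replicate 1) and 0.858 (replicate 2), as descriptions over 9199 genes. The 2 lowest lists lay nearer to the median gene at later times. The median of the cytosolic ribosomal proteins was -2.93 and -3.10 in the 2 replicates at rest, -2.50 at 1 h, -1.82 at 2 h and -1.29 and -1.73 at 4 h. For the other TOP messengers the values were -2.43 and -2.60, then -2.16, -1.48, -1.01 and -1.28. Ribosome biogenesis genes went from -0.27 and -0.62 at rest to 0.26 at 2 h and 0.13 and 0.06 at 4 h. Oxidative phosphorylation genes stayed between -1.57 and -1.09 at all times. Immediate early factors stood at 0.73 and 1.15 at rest, at 1.69 at 1 h and at 0.96 and 1.09 at 4 h. These shifts were not tested, and the 1 h and 2 h points rest on 1 pair of libraries each. After a stimulus the pools are not in balance, so a difference then also holds the change in transcription.

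**Figure D5:**
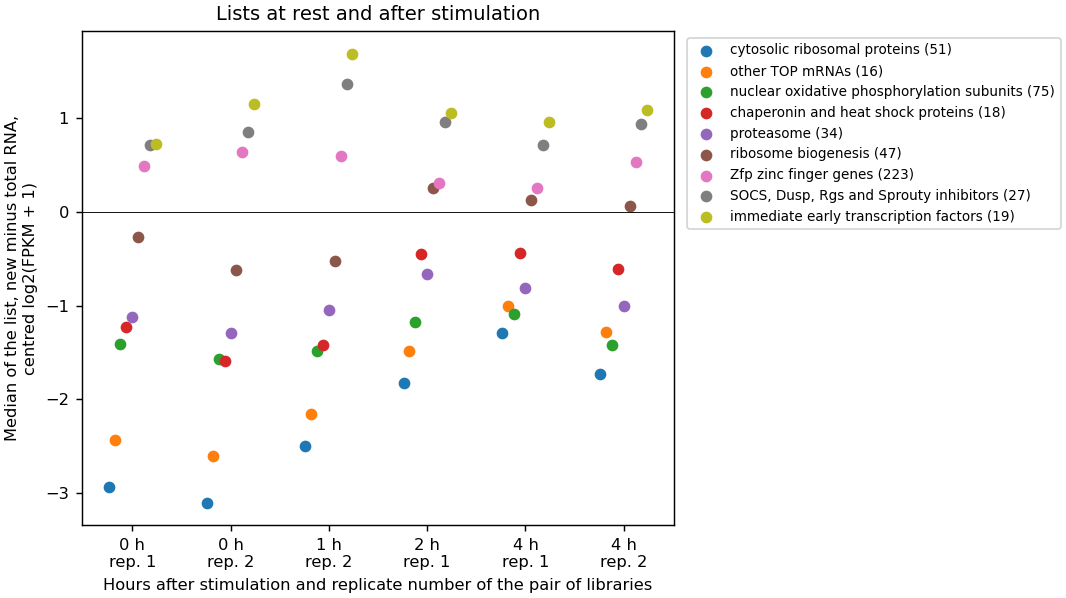
Median centred difference between new and total RNA of 9 gene lists in each pair of libraries of the same replicate number at 0, 1, 2 and 4 h after stimulation. The number of genes tested in each list is in brackets, and the cytosolic ribosomal proteins move from -2.93 and -3.10 at rest to -1.29 and -1.73 at 4 h.

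A single library of resting cells labelled for 0.5 h with 500 µM 4sU gave values beside those of the 1 h label. It was set against the same 2 total RNA libraries, so the comparisons share them. The list medians were -2.71 for cytosolic ribosomal proteins, -1.49 for oxidative phosphorylation, -1.58 for the proteasome, 0.78 for Zfp genes and 1.05 for immediate early factors. With it in place of both 1 h libraries, 954 genes were called higher and 1176 lower. Of the 101 genes called among those named by rule, 82 were still called. Socs1 had 35.1 FPKM in that library, and Rplp1 122 FPKM.

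Ribosome-protected fragments of resting cells give the level of translation of the same lists, again on the FPKM scale but with libraries made by another protocol. Over all genes tested the median was 22.2 and 21.9 FPKM in replicates 1 and 2. Cytosolic ribosomal proteins had medians of 123 and 174 FPKM in fragments, 261 and 200 FPKM in total RNA and 46.2 and 41.3 FPKM in new RNA. Oxidative phosphorylation genes had 193 and 285 FPKM in fragments, 46.8 and 44.4 FPKM in total RNA and 21.3 and 20.5 FPKM in new RNA. The Zfp genes had 6.28 and 6.38 FPKM in fragments, 4.09 and 4.08 FPKM in total RNA and 9.58 and 10.9 FPKM in new RNA. The median of all genes was higher in fragments than in total RNA (8.68 and 7.90 FPKM), as was that of oxidative phosphorylation genes, while that of ribosomal proteins was lower. The Zfp genes were below the median of all genes in fragments as in total RNA. These are medians side by side, with no test between kinds of library. Among single genes, Socs1 had 15.8 and 21.0 FPKM and Rplp1 512 and 570.4 FPKM in fragments.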

How the data were processed

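RNA-seq values of new and total RNA were read from the deposited table of 9420 genes in 24 libraries. Its values are FPKM made by the authors. The submitters' processing notes name the counter featureCounts (Subread 1.4.6-p3) and the build GRCm38. Not given in the sources used here were the aligner, the annotation and gene lengths, the strand setting, how reads that fit several places were treated, and which filter left these genes. All columns were matched to samples by name, and 9412 identifiers had a symbol.

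Values were taken as log2(FPKM + 1), and the new minus total difference was centred as described. It was tested with limma 3.58.1 (R 4.3.3; moderated test with trend, Benjamini-Hochberg) in 1 fit of 14 new and total RNA libraries in 9 groups, with 5 residual degrees of freedom. Tables were made with Python 3.11.15 and pandas 2.3.3. Tested on simulated data of 9223 genes for new against total RNA at rest, the fit recovered 39.4% of 99 genes changed by 1 on the log2 scale and 96.0% of 99 changed by 2, with 4 false among 138 calls. The simulated libraries were drawn independently, without deviations shared by libraries of the same number, and far fewer genes were changed than were called here. These rates may therefore not hold for the real data. FPKM carry no count, so no counting interval is given.

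The labels give replicate numbers 1 and 2 but no shared source. Deviations of same-numbered libraries from their group means correlated at 0.517 to 0.794 in 10 of 10 pairs. On this evidence from the data the numbers pair the libraries, and values with the number as a block are printed beside the counts of the lists described, and for a single gene where they change its call.

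Members and gene lists were chosen with earlier results of these data known. Named genes are the 12 highest and 12 lowest called protein-coding genes whose libraries do not overlap, in each list the 2 called genes farthest from 0, and 20 fixed T cell genes. Other pseudocounts, filters, centrings and fits, the short label library and leaving out libraries were tried as alternatives.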

Additional observations from a re-analysis of the deposited data

How the results depend on the processing

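Against 1212 genes higher and 1605 lower in new RNA, the replicate block gave 2350 and 2638 and no centring gave 3748 and 772. Leaving out replicates gave 0 to 812 higher and 0 to 994 lower. The 0 in both directions came from limma without all resting libraries of 1 number, with 1 library a group assumed to vary like the other groups, where 2588 and 2069 genes had an unadjusted p below 0.05. Pseudocounts of 0.1 and 5, no filter, a minimum of 5 FPKM, the 4 resting libraries alone, median-of-ratios scaling, no variance trend and the short label library each kept both counts within 1.5 times, from 853 to 1496 higher and from 1176 to 1675 lower. Of the 101 named genes called, 101 were called with the block and 53 under each of the 4 fits without 1 library. Without centring the list median turned positive for mitochondrial ribosomal proteins (0.29), V-ATPase (0.24), ribosome biogenesis (0.0788), SR proteins and CLK kinases (0.32), T cell receptor signalling (0.47), endoplasmic reticulum chaperones (0.13), S phase (0.16), mitosis (0.14) and RNA polymerase II (0.11). T cell receptor signalling also turned with a pseudocount of 5 (0.0538) and ran from -0.1574 to 0.2206 in the fits without 1 library, where it turned without new RNA replicate 2 (0.2206) and without total RNA replicate 1 (0.1284). Polyamine genes ran from -0.8674 to 0.0356 in those fits and turned without new RNA replicate 2, and SR proteins and CLK kinases with the short label library (0.11). The interferon response median of 0.06 was -0.20 without new RNA replicate 1. Within replicates 1 and 2 it was 0.10 and -0.02, and that of T cell receptor signalling was -0.04 and -0.07. Fits without 1 library set unequal replicate numbers against each other, so their medians also hold the gap between the numbers. A total RNA library left out of a fit still served to centre the libraries of its number. The cause of these shifts was not tested. With 2 libraries a group and no depth for 3 of the 4, changes of low genes are the least certain.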
